A study of Homo sapiens with 14 samples.

Results

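The insulin-like growth factor (IGF) axis was examined in TC-32, an established Ewing sarcoma cell line, through 10 genes: the ligands IGF1 and IGF2, the receptors IGF1R, IGF2R and INSR, the substrates IRS1 and IRS2, and the binding proteins IGFBP2, IGFBP3 and IGFBP5. The genes were chosen by name for their place in the pathway, and they are 10 of the 19962 protein-coding genes of GENCODE release 44 on the hg38 build that were searched in the same way. For each gene, the peaks of every list that touched the gene or the 10 kb flanking each of its ends were collected, and a wider window with flanks of 50 kb was read as well. The study mapped EWSR1::FLI1, the fusion oncoprotein of Ewing sarcoma, in 14 CUT&RUN libraries, an assay in which an antibody tethers a nuclease that releases the DNA around its target. All 14 libraries came from untreated, wild-type TC-32 cells, so that 1 cell line stands for the disease and no group lacks the fusion. An antibody against FLI1 was used in 4 libraries (2 in a set named A and 2 in a set named B), and IgG controls were prepared in the same numbers. Further pairs of libraries used antibodies against H3K27ac (set A), H3K9me3 (set B) and H3K27me3 (set B). The labels do not say what the letters A and B stand for, nor whether replicates came from separate cultures.

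IGF1 and IGF2 are secreted ligands that activate the receptor tyrosine kinase IGF1R, and they also reach hybrid receptors that contain INSR, the insulin receptor. IRS1 and IRS2 carry the signal from the receptors to the PI3K-AKT and MAPK cascades, IGF2R removes IGF2 from the surface for degradation, and the IGFBP proteins bind the ligands outside the cell. IGF1R signalling is required for EWSR1::FLI1 to transform cells, and IGF1R antibodies have been tried in patients with Ewing sarcoma. EWSR1::FLI1 binds the motif GGAA, singly or in tandem repeats, and H3K27ac marks active enhancers and promoters, H3K27me3 marks Polycomb-repressed chromatin, and H3K9me3 marks heterochromatin.

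The 4 FLI1 lists held between 29339 and 40590 regions. For replicates 1 and 2 in turn, H3K27ac had 10219 and 17366 regions, H3K9me3 had 36687 and 21770, and H3K27me3 had 21461 and 16667. The lists differ in length within an antibody, and the read depth behind them is unknown, so a gene with no region is one where none was detected at this depth. The fold of a region is the deposited ratio of its signal to IgG, and folds were ranked only within a list. Median folds were 6.88 and 6.46 in the set A FLI1 lists and 8.20 and 8.10 in those of set B. Folds compared between the sets are therefore read beside their ranks. All 3 reference loci that were checked (NR0B1, NKX2-2 and CCND1, targets of the fusion in the literature) held FLI1 regions in all 4 libraries.

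FLI1 regions lay in the 10 kb window of 8 of the 10 genes in all 4 libraries, and IGF2 and IGFBP3 were the exceptions. Among all protein-coding genes the share was 56.3%. Over the gene body alone 7 of 10 genes had it (42.1% of all genes), and within 50 kb 8 of 10 (73.9%). H3K27ac was found in both replicates at 6 of the 10 genes (IGF1, IGF1R, IGF2R, INSR, IRS1 and IGFBP2), where 28.3% of all genes had it. H3K9me3 was found in both replicates at 5 of 10 (IGF1, IGF1R, IGF2R, INSR and IRS1), beside 25.3% of all genes. H3K27me3 was found in both replicates at IGF2 and IGFBP3 and at none of the other 8, beside 17.6% of all genes. Most of these mark calls were lost when only peaks with a −log10 q of at least 5 were kept. H3K27ac and H3K9me3 then remained at IGF1R and IGF2R (7.85% and 7.55% of all genes) and H3K27me3 at IGF2 (6.53%). At IGF2R the H3K27ac regions that remained lay at different sites, in intron 7 in replicate 1 and in intron 12 in replicate 2. With the same cut, FLI1 in all 4 libraries was found at 7 of 10 (52.8%). No gene of the axis had both FLI1 in all 4 libraries and H3K27me3 in both replicates. That pairing was seen at 5.88% of all genes, and at that rate a set of 10 would hold few or none. FLI1 with H3K27ac was found at 6 of the 10 genes (24.2% of all genes) and FLI1 with H3K9me3 at 5 (16.9%).

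**Figure D1:**
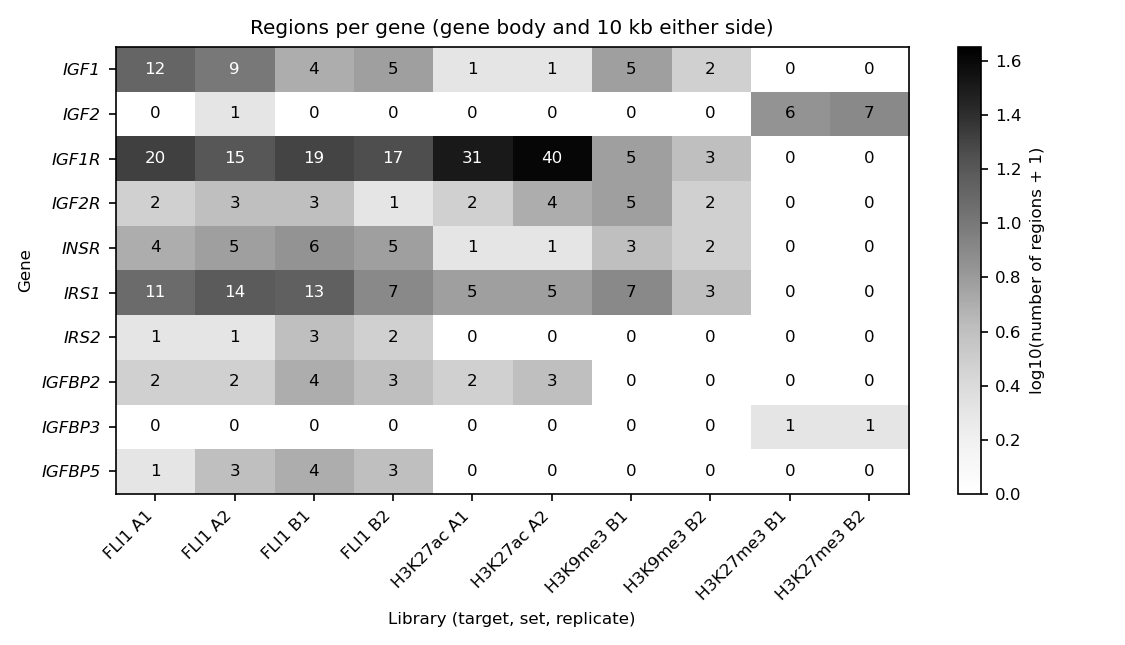
Number of regions in the 10 kb window, for the 10 genes (rows) in each of the 10 peak lists (columns). IGF1R holds 31 and 40 H3K27ac regions, and IGF2 and IGFBP3 are the genes with H3K27me3 and with at most 1 FLI1 region in any library.

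The genes of the axis are long, with a median of 51.2 kb against 27.5 kb for all genes, and a longer window has more room for a region. Among the 3660 genes of at least 100 kb, FLI1 was found in all 4 libraries at 66.6%, H3K27ac in both replicates at 37.2%, H3K9me3 at 57.6% and H3K27me3 at 28.0%. IGF1R, IGF2R and INSR, the receptors, are in that class, and all 3 had FLI1, H3K27ac and H3K9me3 and none had H3K27me3. Within 50 kb, H3K27ac and H3K9me3 of both replicates each reached 7 of the 10 genes (44.8% and 44.5% of all genes), and H3K27me3 stayed at 2 (29.4%).

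At the transcription starts themselves the picture was narrower. Within 1 kb of a start, FLI1 regions of all 4 libraries were found at 4 of the 10 genes (IGF1, IGF1R, IGF2R and IRS1), beside 38.3% of all genes, and H3K27ac of both replicates was found at IGFBP2 alone, beside 14.8%. H3K9me3 reached a start of none of the 10 genes (2.21% of all genes), and H3K27me3 reached a start of both IGF2 and IGFBP3 (11.0%). Regions that overlapped between libraries were joined, which gave 69 FLI1 regions in the 10 kb windows, of which 23 (33.3%) were present in all 4 libraries. Over the whole genome 29.3% of 55109 joined regions were. Of the 23, 16 lay in introns and 4 spanned a transcription start. Another 26 of the 69 were seen in 1 library only.

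IGF1, the ligand gene on chr12:102395874-102481744 (minus strand, 85.9 kb, ENSG00000017427), held 12 and 9 FLI1 regions in the set A libraries, against 4 and 5 in those of set B. The sets did not overlap, with set A above set B. Of all genes, 9.88% had more regions in both set A libraries than in either set B library, and IGF1 was the 1 gene of the 10 that did. Per 100 kb of window the counts came to 11.3, 8.50, 3.78 and 4.72, where the whole genome held 1.16, 1.34, 1.26 and 0.968. Of 12 joined regions at IGF1, 3 were present in all 4 libraries.

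The joined region of IGF1 with the best mean rank of fold lay in intron 3 at chr12:102414415-102417626, 66.5 kb from the 5′ end. Its set A folds were 21.7 and 23.4, against 13.7 and 11.6 for set B. A second one, at chr12:102478890-102481278, spanned transcription starts near the 5′ end, where the set A folds were 25.8 and 21.0, against 11.9 and 8.86 for set B. In both regions the 2 set A libraries lay above the 2 set B libraries, and so did their ranks: the second stood at the 94.3 and 92.6 percentiles of its set A lists and at the 73.6 and 58.1 percentiles of its set B lists. A weaker region stood 21.9 kb upstream at chr12:102503296-102504178, with folds of 6.92, 8.92, 7.93 and 7.06, and here the sets overlapped.

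The intron 3 region of IGF1 contains a tandem repeat of TTCC, the reverse complement of GGAA, and IGF1 is transcribed from the minus strand, so the repeat reads GGAA along the gene. Its longest unbroken run, at chr12:102415544-102415599, has 14 units. The run lay 260 to 317 bases from the summits of the 4 libraries, just beyond the 250 bases within which a repeat was counted. The 121 bases around the summit itself held no GGAA or TTCC core (0), and neither did those of the region over the transcription starts (0). The sequence of hg38 around the run, plus strand at chr12:102415504-102415639, is shown because it is the longer of the 2 repeats found in the joined FLI1 regions of all 4 libraries, with GGAA and TTCC in capitals.
IGF1 intron 3 repeat: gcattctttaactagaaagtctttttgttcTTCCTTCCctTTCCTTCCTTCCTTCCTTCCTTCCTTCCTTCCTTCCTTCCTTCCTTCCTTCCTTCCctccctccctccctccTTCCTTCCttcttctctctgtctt

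Chromatin marks at IGF1 were thin. Each H3K27ac replicate had 1 region, in intron 2, at chr12:102427077-102427276 (fold 4.86) and chr12:102439026-102439273 (fold 4.32), and the 2 did not overlap, so no base of IGF1 was acetylated in both replicates. H3K9me3 regions numbered 5 and 2, and the replicates shared 0.200 kb. H3K27me3 was not detected.

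**Figure D2:**
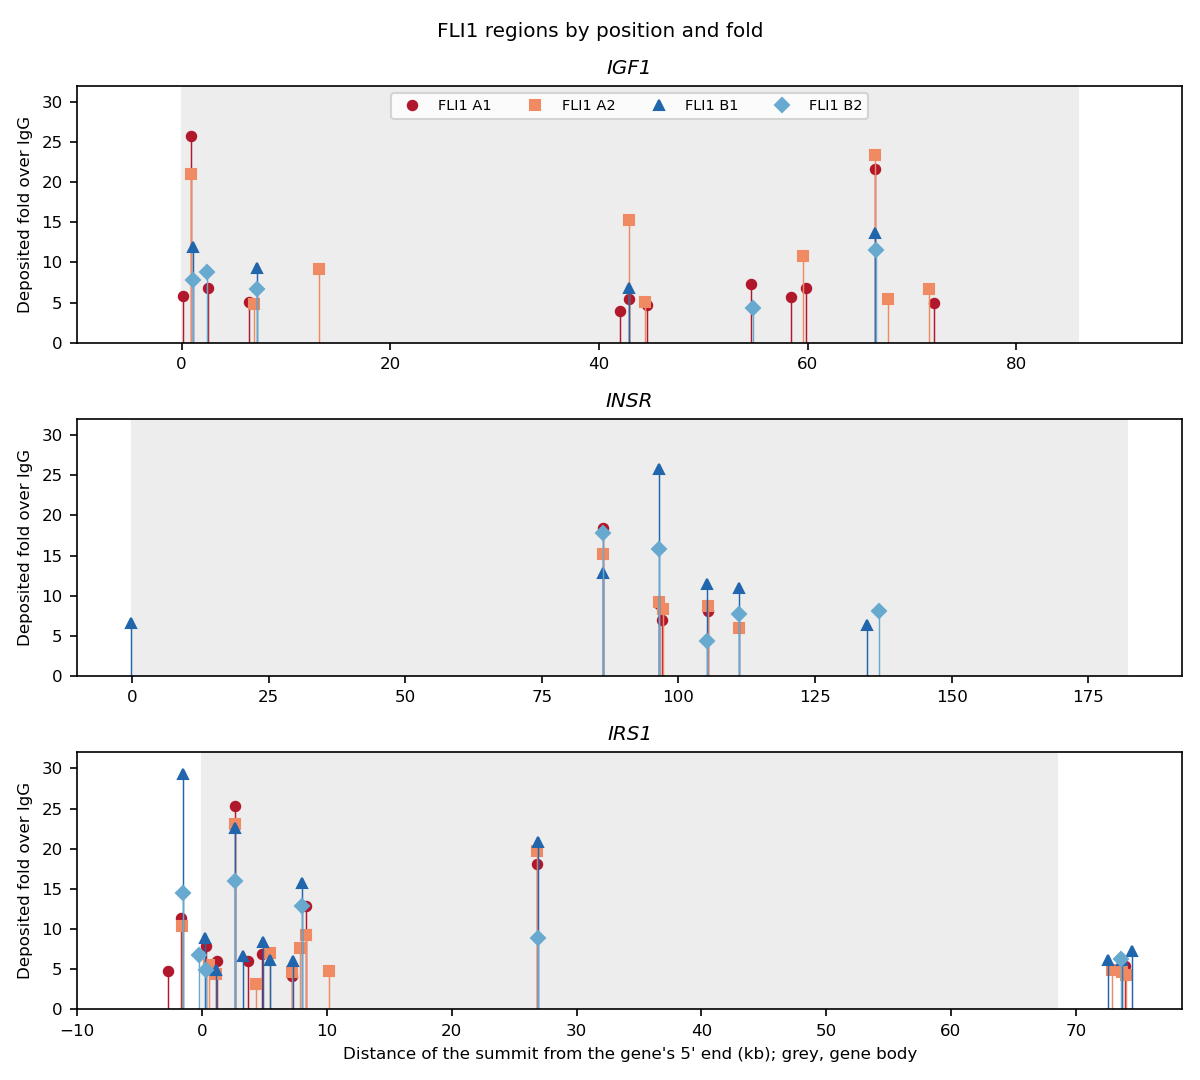
Deposited fold over IgG of each FLI1 region (vertical axis) by its distance in kb from the 5′ end of the gene (horizontal axis) for IGF1, INSR and IRS1, with colours for the 4 libraries. At IGF1 the points at 0.913 and 66.5 kb are higher in set A than in set B, and at INSR the point at 96.4 kb is higher in set B.

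IGF2, the fetal growth ligand and an imprinted gene (chr11:2129112-2158391, minus strand, 29.3 kb, ENSG00000167244), had the opposite profile. Of the 4 FLI1 libraries, 1 (set A replicate 2) had a single region, at chr11:2151643-2151846 with a fold of 5.58, at the 35.7 percentile of its list. H3K27me3 regions numbered 6 and 7 and covered 74.0% and 65.9% of the 10 kb window. The widest were chr11:2131405-2150273 (18869 bases, fold 7.53) and chr11:2131577-2149500 (17924 bases, fold 6.87), at the 98.8 and 98.2 percentiles of fold of their lists. The replicates shared 31.2 kb, which held 8 of the 9 annotated transcription starts of IGF2. In the 50 kb window the H3K27me3 regions numbered 18 and 22. No H3K27ac or H3K9me3 region was detected in either window. The lists do not separate the parental alleles.

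IGF1R, the main signalling receptor (chr15:98648539-98964530, plus strand, 316 kb, ENSG00000140443), carried more H3K27ac regions than almost any other gene. It held 31 and 40 in the 2 replicates. In replicate 1 no other of the 19962 genes had as many, and in replicate 2 the number of genes with at least 40 was 3, IGF1R included. Length contributes to this count: by regions per 100 kb of window (9.23 and 11.9), 296 and 381 genes stood at or above IGF1R. The genome as a whole held 0.337 and 0.573 regions per 100 kb. In the 500 kb upstream of the gene, H3K27ac regions numbered 0 and 0, and in the 500 kb downstream they numbered 2 and 6, so the acetylation was dense over the gene body and sparse on either side.

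The H3K27ac regions of IGF1R lay from 20.2 to 254.6 kb from its 5′ end in replicate 1 and from 20.0 to 254.6 kb in replicate 2. None of its 3 annotated starts lay in H3K27ac common to both replicates. When the gene body was divided into 5 equal parts, the fourth (189.6 to 252.8 kb) held 18 and 24 of them. Single regions were of ordinary strength, with a median fold of 5.26 and 4.90 beside list medians of 4.97 and 4.84. The widest was chr15:98855485-98857195 (1711 bases, fold 4.21) in replicate 1 and chr15:98859890-98861986 (2097 bases, fold 5.84) in replicate 2, both in intron 2. Regions covered 20.8 and 24.6 kb, of which 12.1 kb in 26 pieces was common to both replicates. With only peaks of −log10 q of at least 5, IGF1R kept 10 and 13 regions, and the numbers of genes with at least as many were 2 and 6.

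FLI1 regions at IGF1R numbered 20, 15, 19 and 17 in set A replicates 1 and 2 and set B replicates 1 and 2, and the sets overlapped. The numbers of genes with at least as many were 67, 215, 90 and 59. Per 100 kb IGF1R had 5.95, 4.46, 5.65 and 5.06 regions, at the 84.2, 77.2, 80.6 and 82.4 percentiles of all genes. FLI1 was again densest in the fourth of the 5 parts, with 9, 6, 8 and 6 regions, and the last part held none in any library. Of the FLI1 regions, 6, 5, 6 and 3 overlapped H3K27ac common to both replicates, and 10, 8, 8 and 5 lay within 1 kb of it.

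The joined FLI1 region of IGF1R with the best mean rank, at chr15:98799149-98801329 in intron 2 (151 kb from the 5′ end), had folds of 20.3, 17.8, 16.2 and 11.7. It lay 25.0 kb from the nearest H3K27ac common to both replicates. The next, at chr15:98852135-98853824 (204 kb, intron 2), had folds of 13.1, 14.7, 14.3 and 9.07 and lay 0.608 kb from such acetylation. Of the 8 joined regions in all 4 libraries, 1 overlapped it, at chr15:98883846-98884596 (236 kb, intron 2), with folds of 4.78, 7.65, 5.58 and 6.73. This weaker region, and the start region that follows, are named for position and were chosen after their values were seen. A region over the main start, chr15:98646828-98648744, had folds of 8.93, 6.0, 13.6 and 12.8, at the 66.9, 42.8, 79.1 and 79.2 percentiles of the lists. Both set B values lay above both set A values in fold and in rank, and the region had no H3K27ac from both replicates. For the strongest region (151 kb) and the one that overlapped acetylation (236 kb), the sequence at 1 summit follows on the plus strand of hg38. The stretches, chr15:98799603-98799723 and chr15:98884078-98884198, are centred on the summits of set A replicate 1 and set A replicate 2, with GGAA and TTCC in capitals. Each stretch holds 1 such core and no repeat. At 236 kb the summits of the other libraries lie outside both the stretch and the H3K27ac common to both replicates. At 151 kb the summit of set B replicate 2 lies outside the stretch.
IGF1R 151 kb: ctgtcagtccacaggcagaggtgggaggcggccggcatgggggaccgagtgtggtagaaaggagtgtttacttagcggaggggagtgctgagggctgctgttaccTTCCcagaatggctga
IGF1R 236 kb: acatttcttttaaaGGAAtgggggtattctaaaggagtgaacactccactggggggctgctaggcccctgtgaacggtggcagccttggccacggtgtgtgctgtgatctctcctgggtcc

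H3K9me3 at IGF1R numbered 5 and 3 regions and was dominated by 1 broad domain in intron 2. It ran over chr15:98815680-98837721 (22042 bases, fold 7.19) in replicate 1 and over chr15:98809051-98836182 (27132 bases, fold 6.65) in replicate 2, at the 98.6 and 95.4 percentiles of fold. The domain lay between the strongest FLI1 region at 151 kb and the dense H3K27ac that begins beyond 190 kb. H3K27me3 was not detected. In the 50 kb window, 1 more FLI1 region was present in all 4 libraries, downstream at chr15:99009493-99010496 and 2.37 kb from a start of PGPEP1L, with folds of 6.26, 4.53, 4.70 and 6.57.

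**Figure D3:**
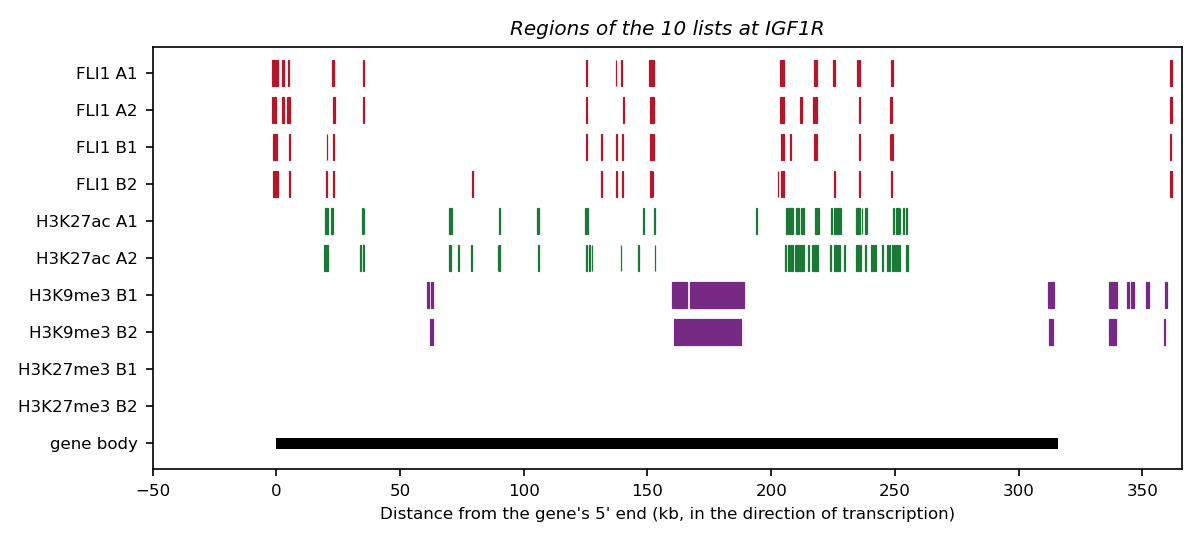
Regions of the 10 lists along IGF1R, drawn to scale by distance in kb from the 5′ end, with 1 track per library. H3K27ac is densest between 189.6 and 252.8 kb in both replicates, and a broad H3K9me3 domain lies just before it.

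IGF2R, the clearance receptor for IGF2 (chr6:159969082-160113507, plus strand, 144 kb, ENSG00000197081), had 2, 3, 3 and 1 FLI1 regions. The 1 that all 4 libraries shared, chr6:159968356-159969511, spanned the start of the gene, with folds of 8.62, 8.77, 11.7 and 8.73. Its summits fell within a few bases of each other in the 4 libraries. The hg38 sequence there, plus strand at chr6:159968697-159968817, is shown because it holds 4 GGAA or TTCC cores (capitals) within 121 bases, which 6.87% of the summit windows of joined regions in all 4 libraries equal or exceed.
IGF2R start: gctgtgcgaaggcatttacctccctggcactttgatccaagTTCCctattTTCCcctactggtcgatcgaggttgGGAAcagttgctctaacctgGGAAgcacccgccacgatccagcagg
A second IGF2R region, chr6:159979194-159979890, was found in set A only, with folds of 13.4 and 18.0 (named after its values were seen). In the wider window a region 15.8 kb upstream, chr6:159952981-159953751, had folds of 4.70, 10.8, 6.81 and 8.46. H3K27ac common to both replicates came to 1.32 kb, the nearest of it 60.3 kb from the start region. The widest regions lay in intron 7, at chr6:160029782-160030820 (fold 6.32) and chr6:160029491-160030674 (fold 4.62). Both replicates also had a region in intron 12, chr6:160043694-160044120 (fold 5.59) and chr6:160043524-160044171 (fold 8.57). Replicate 2 alone had a region in intron 1, chr6:159978511-159979166 (fold 5.52), 9.75 kb from the 5′ end. The intron 12 and intron 1 regions were named after their values were seen. H3K9me3 numbered 5 and 2 regions and shared 2.49 kb. The widest of replicate 1 was chr6:159992130-159994725 (fold 4.19) and the widest of replicate 2 was chr6:160003888-160006717 (fold 6.02), both in intron 2.

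INSR, the insulin receptor (chr19:7112255-7294414, minus strand, 182 kb, ENSG00000171105), had 4, 5, 6 and 5 FLI1 regions, of which 3 joined regions were present in all 4 libraries, all in intron 2. The one with the best mean rank, chr19:7206614-7208459 at 86.3 kb from the 5′ end, had folds of 18.4, 15.2, 12.9 and 17.9. It was the 1 region among the 23 with a GGAA repeat of at least 4 units within 250 bases of a summit, beside 7.78% of the 16163 joined regions present in all 4 libraries. The repeat, an unbroken run of 9 units at chr19:7207904-7207939, lay 190 to 237 bases from the summits. The next region, chr19:7196963-7198498 (96.4 kb), gave set A folds of 8.93 and 9.23, against 25.8 and 15.8 for set B, which was higher without overlap. The same region stood at the 66.9 and 71.8 percentiles of its set A lists and at the 94.8 and 87.1 percentiles of its set B lists. Its summit sequence holds no GGAA or TTCC core. Both sequences are given on the plus strand of hg38, at chr19:7207864-7207979 and chr19:7197931-7198051, to set the region with a repeat beside the one without a core.
INSR 86.3 kb repeat: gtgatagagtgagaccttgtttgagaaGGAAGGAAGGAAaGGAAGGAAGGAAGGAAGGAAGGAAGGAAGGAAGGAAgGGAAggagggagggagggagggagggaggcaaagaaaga
INSR 96.4 kb: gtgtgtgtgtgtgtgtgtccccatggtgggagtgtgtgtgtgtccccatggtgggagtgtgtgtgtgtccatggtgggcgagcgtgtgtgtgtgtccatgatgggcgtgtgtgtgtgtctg

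The INSR start was occupied in set B replicate 1 only. H3K27ac had 1 region per replicate in intron 3, chr19:7183361-7183560 (fold 4.43) and chr19:7183140-7183398 (fold 4.01), with 0.0380 kb in common, so that its call in both replicates rests on a short overlap of weak regions. H3K9me3 numbered 3 and 2 regions, the widest in intron 16 at chr19:7125120-7126891 (fold 5.52) and chr19:7125896-7126551 (fold 4.78). The strongest FLI1 region of any window lay downstream of INSR, outside the gene at chr19:7068991-7070324 and 0.167 kb from a start of MBD3L3. Its folds of 143, 94.2, 51.6 and 30.3 stood at the 99.8, 99.4, 99.4 and 97.6 percentiles of the lists. It is 225 kb from the 5′ end of INSR and closer to other genes.

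IRS1, the substrate gene next to the receptors in the pathway (chr2:226731312-226799820, minus strand, 68.5 kb, ENSG00000169047), was dense in FLI1 for its size. It had 11, 14, 13 and 7 regions, which is 12.4, 15.8, 14.7 and 7.91 per 100 kb of window, at the 96.2, 97.6, 96.8 and 90.8 percentiles of all genes. Of 11 joined regions, 5 were present in all 4 libraries. The best ranked, chr2:226795820-226798894, had its summit in coding exon 1, at 2.63 kb from the 5′ end, with folds of 25.4, 23.1, 22.6 and 16.0. The next spanned the start at chr2:226798968-226801778, with folds of 11.4, 10.4, 29.3 and 14.4, at the 77.6, 76.7, 96.3 and 83.9 percentiles of the lists. Set B was higher in fold and in rank. Together the 2 regions form a block over the 5′ end of the gene. The summit sequence within coding exon 1 of IRS1, plus strand at chr2:226797128-226797248, is shown as the best ranked of all FLI1 regions in the 10 kb windows, with its 1 core in capitals.
IRS1 coding exon 1: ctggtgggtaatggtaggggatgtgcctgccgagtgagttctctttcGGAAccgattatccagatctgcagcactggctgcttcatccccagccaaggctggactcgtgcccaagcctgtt

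H3K27ac at IRS1 numbered 5 regions in each replicate but the replicates shared only 0.325 kb. The widest were chr2:226742107-226742520 (fold 5.65) and chr2:226794307-226794941 (fold 5.84), the latter 5.07 kb from the 5′ end in intron 1. H3K9me3 numbered 7 and 3 regions and shared 2.37 kb, with the widest at chr2:226774859-226777582 (fold 4.42) and chr2:226775173-226776948 (fold 5.12) in intron 1. H3K27me3 was not detected.

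IRS2, the other substrate gene (chr13:109752695-109786583, minus strand, 33.9 kb, ENSG00000185950), had 1 FLI1 region in each set A library, against 3 and 2 regions in those of set B. IRS2 and IGFBP2 were the 2 of 10 genes with more regions in both set B libraries than in either set A library, which 11.4% of all genes had. The region present in all 4 libraries lay past the 3′ end, at chr13:109743250-109745014, 42.6 kb from the 5′ end, with folds of 16.4, 16.2, 16.7 and 11.6. At the start, chr13:109786201-109787858 was found in both set B libraries (folds 17.8 and 14.2) and in neither set A library. A start with FLI1 in both set B libraries and in neither set A library was seen at 5.76% of all genes, and this region was named after its values were seen. No H3K27ac, H3K9me3 or H3K27me3 region was detected in the 10 kb window. The summit sequence of the downstream region, plus strand at chr13:109743933-109744053, holds 3 GGAA cores close together (capitals), a number that 19.3% of summit windows reach or exceed.
IRS2 downstream: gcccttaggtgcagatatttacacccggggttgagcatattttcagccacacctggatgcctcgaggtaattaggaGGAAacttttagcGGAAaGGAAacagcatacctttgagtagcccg

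**Figure D4:**
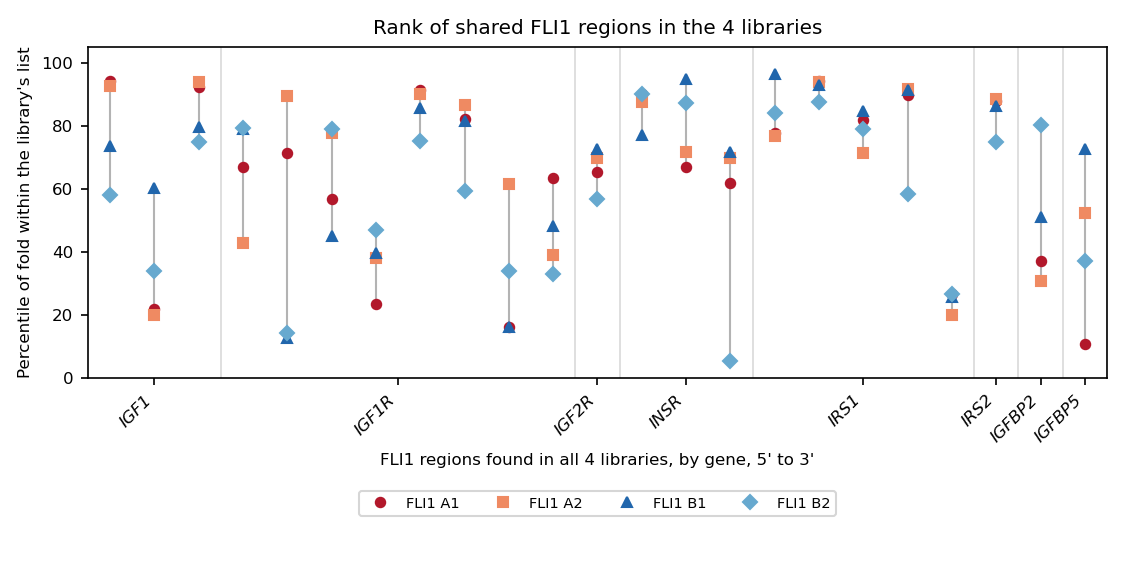
Percentile of the deposited fold within each FLI1 list (vertical axis) for the 23 joined regions present in all 4 libraries, by gene, with 1 point per library. The best-ranked IRS1 region lies between 87.4 and 94.1 in the 4 lists, and the set A points of the 2 strongest IGF1 regions lie above the set B points.

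IGFBP2, a binding protein gene (chr2:216632828-216664436, plus strand, 31.6 kb, ENSG00000115457), had 2, 2, 4 and 3 FLI1 regions, again with set B above set A. It was the 1 gene of the 10 with H3K27ac of both replicates within 1 kb of a start. None of its 4 annotated starts lay in H3K27ac common to both replicates. The replicate 1 region near the start had a −log10 q of 3.89, so this call was lost at a −log10 q of at least 5. The acetylated regions were chr2:216633939-216634818 (fold 5.34) and chr2:216634252-216634682 (fold 6.89), in intron 1, and the replicates shared 0.763 kb in 2 pieces. The FLI1 region present in all 4 libraries, chr2:216635700-216637482, lay 3.66 kb from the 5′ end in the same intron. Its edge touched a pair of weaker H3K27ac regions, chr2:216635510-216635841 and chr2:216635496-216635859, and of the 4 libraries only set A replicate 1 and set B replicate 1 had a FLI1 region that overlapped what the replicates share. Its folds were 5.97, 5.48, 8.33 and 13.2. A stronger region stood 36.7 kb upstream at chr2:216595749-216598143, with folds of 18.1, 20.1, 8.99 and 16.1. The summit sequence of the FLI1 region in intron 1, plus strand at chr2:216636432-216636552, is given with its core in capitals, and it lies outside those H3K27ac regions.
IGFBP2 intron 1: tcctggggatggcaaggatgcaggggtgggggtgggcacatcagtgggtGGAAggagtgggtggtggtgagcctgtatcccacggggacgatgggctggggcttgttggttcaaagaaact

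IGFBP5, a binding protein gene 7.67 kb from IGFBP2 on the opposite strand (chr2:216672105-216695549, minus strand, 23.4 kb, ENSG00000115461), had 1, 3, 4 and 3 FLI1 regions. Because the genes are neighbours their 10 kb windows overlap, and 1 region of set B replicate 1 is counted for both. The region present in all 4 libraries, chr2:216692263-216693715 in intron 1, had folds of 4.48, 6.74, 11.7 and 7.04. The start region of IGFBP5, chr2:216695619-216695913, was found in set B only, with folds of 8.51 and 12.5, and set A replicate 2 had another region within 1 kb of a start (chr2:216694158-216694359, fold 5.08). Both were named after their values were seen. None of the 3 histone marks had a region in the 10 kb window of IGFBP5 in either replicate.

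IGFBP3, whose product carries most IGF in blood (chr7:45912245-45921874, minus strand, 9.63 kb, ENSG00000146674), had no FLI1 region in its 10 kb window in any library, as did 23.5% of all genes. H3K27me3 formed 1 region in each replicate over the 5′ end of the gene, chr7:45917832-45922732 (4901 bases, fold 6.31) and chr7:45919404-45922731 (3328 bases, fold 5.29), at the 94.6 and 76.8 percentiles of fold. The 3.33 kb common to both held 2 of the 4 transcription starts. In the 50 kb window 1 FLI1 region appeared, in set B replicate 1 only, at chr7:45889696-45889913 with a fold of 7.63 and 1.29 kb from a start of IGFBP1. IGF2 and IGFBP3 were thus the 2 genes of the axis with H3K27me3 and without a FLI1 region in at least 2 libraries. The replicate 2 region of IGFBP3 had a −log10 q of 4.49, so its call in both replicates was lost at a −log10 q of at least 5. The numbers are small and the pairing was not tested.

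**Figure D5:**
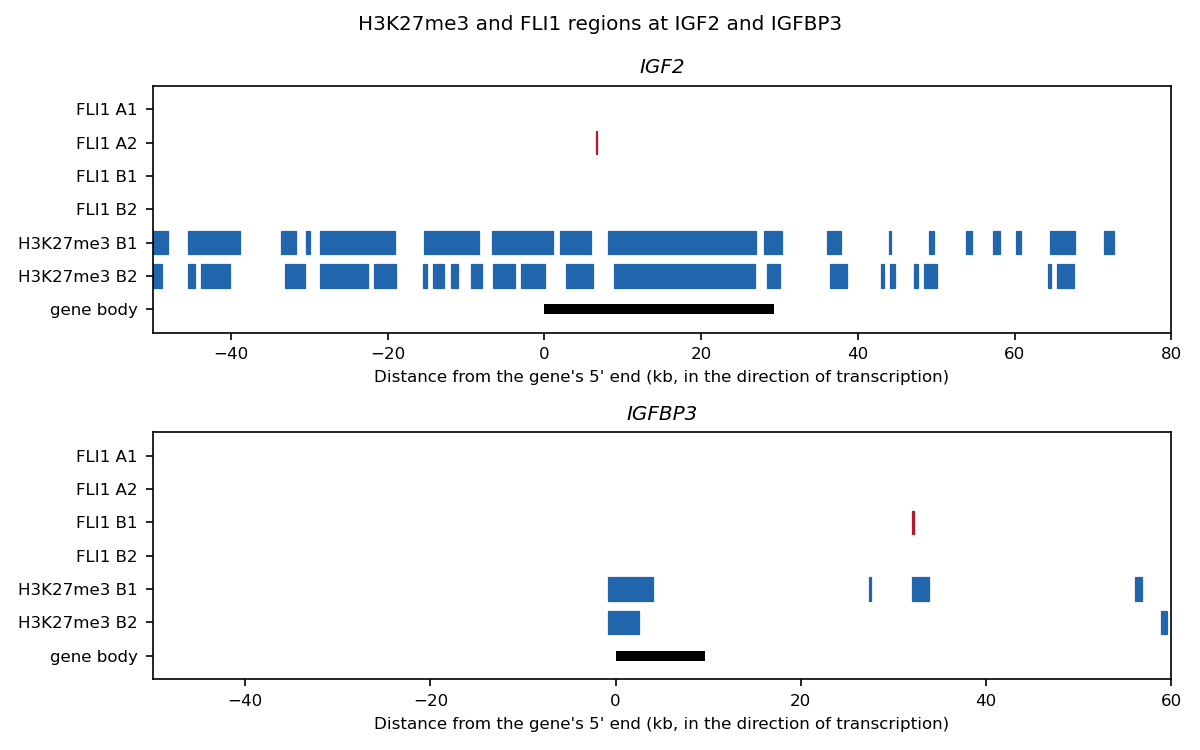
H3K27me3 and FLI1 regions along IGF2 and IGFBP3, drawn to scale by distance in kb from the 5′ end, with 1 track per library. H3K27me3 covers 74.0% and 65.9% of the IGF2 window and the 5′ end of IGFBP3, and 1 FLI1 region falls in the IGF2 window and none in the 10 kb window of IGFBP3.

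Across the 10 genes, 53, 53, 55 and 43 FLI1 regions lay in the 10 kb windows, of which 7, 7, 9 and 5 (13.2%, 13.2%, 16.4% and 11.6%) overlapped H3K27ac common to both replicates. Over the whole lists the shares were 7.81%, 7.06%, 6.87% and 7.76%. IGF1R supplied 6, 5, 6 and 3 of these regions. Of the joined regions in all 4 libraries, 3 of 23 overlapped H3K27ac, and 4 of 30 did within 50 kb, beside 12.4% genome-wide. No FLI1 region of the 10 kb windows overlapped H3K9me3 or H3K27me3 of both replicates in any library, and over the whole lists such overlap was rare as well, at 0.297% to 1.26% and 0.212% to 0.505% of regions. Of the joined regions in all 4 libraries, 1.07% and 0.198% overlapped these marks. Sets of this size would hold few or none at those rates. In fold the regions were middling, with medians at the 49.6, 52.2, 51.1 and 43.7 percentiles of their lists. Of the 30 joined regions of all 4 libraries in the 50 kb windows, 24 held GGAA or TTCC within 121 bases around a summit, where 77.1% of all 16163 did. Within the same 121 bases none held CCGGAA or TTCCGG, the longer ETS site, which was in 5.67% of all 16163. At that rate 30 regions would hold few or none. Elsewhere in the joined regions the site can occur, as in the promoters of IGF2R and IRS1 described below.

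Relative to list length, the 10 genes took 15.1 and 13.1 of every 10000 listed FLI1 regions in the set A libraries, against 14.4 and 14.7 for set B. The set means were 14.1 ± 1.41 and 14.5 ± 0.188 (SD, n = 2 libraries each). The difference of -0.468 was smaller than the spread within set A, and an exact two-sided permutation test over the 4 libraries gave p = 1, where the smallest value this design allows is 0.333. Of the 10 genes, 1 (IGF1) had more regions in both set A libraries than in either set B library, beside 9.88% of all genes. The reverse held for 2 (IRS2 and IGFBP2), beside 11.4%. These counts are near the shares of all genes, and the differences at single genes were not tested. Set A and set B also differ in their IgG controls, so that a difference between sets and a difference between controls cannot be told apart.

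Promoters of the axis were read from RefSeq (build GRCh38.p14) over 300 bases around each start, and 9 of the 10 genes matched, with 12 promoters. CCGGAA or TTCCGG was present in 4 of the 12 (IGFBP5, IRS1, IGF2R and IGFBP3), where 17.2% of 35116 promoters held it. Of these 4 genes, IRS1 and IGF2R had FLI1 at a start in all 4 libraries, IGFBP5 in 3 libraries (not in set A replicate 1) and IGFBP3 in none.

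The further genes of the pathway were taken from a list of 43. FLI1 was found in all 4 libraries in the 10 kb window of 29 of 43 and H3K27ac in both replicates at 23 of 43, with H3K9me3 at 12 and H3K27me3 at 7. The shares of all genes were 56.3%, 28.3%, 25.3% and 17.6%. At a start, FLI1 was present in all 4 libraries at 21 genes, H3K27ac at 13 and both at 11. The shares of all genes were 38.3%, 14.8% and 10.9%. The 11 were all genes of the intracellular cascade, and they included GRB2, SHC1 and SOS1, which link receptors to RAS, PIK3R1 and PIK3R3, regulatory subunits of PI3K, and AKT2. None of the 10 genes of the axis itself had both at a start, and at a rate of 10.9% a set of 10 would hold few or none.

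By role, the 3 further ligand, receptor and substrate genes (INS, INSRR and IRS4) had H3K27me3 at a start in both replicates, beside 11.0% of all genes, and FLI1 in all 4 libraries at none. FLI1 regions were nonetheless listed in 3 of the 4 libraries at INSRR (1, 2, 1 and 0) and at IRS4 (1, 2, 2 and 0), and set B replicate 2 was the library without one. INS lies in the window of IGF2 and shares its H3K27me3. Among the 28 genes of the intracellular cascade (adaptors, kinases and their regulators), FLI1 was found at 21, H3K27ac at 18 and H3K9me3 at 9. The shares of all genes were 56.3%, 28.3% and 25.3%. GRB10 and GRB14, adaptors that restrain insulin receptor signalling, had H3K27me3 at a start in both replicates. GRB10, an imprinted gene as IGF2 is, held 20 and 16 H3K27me3 regions. All 3 IGF2 mRNA-binding proteins had FLI1 in all 4 libraries and H3K27ac in both replicates, beside 24.2% of all genes. IGF2BP1, named after its values were seen, held 23, 24, 22 and 19 FLI1 regions with 9 and 17 H3K27ac regions. Of the 5 further binding protein genes, 3 had FLI1 and 1 had H3K27ac. Of the 4 proteases and inhibitors of the IGF system, 2 had FLI1 and 1 had H3K27ac. In both groups the counts were near the shares of all genes (56.3% and 28.3%).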

How the data were processed

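The 10 peak lists from 14 CUT&RUN libraries of TC-32 cells each hold 1 FLI1 or histone mark library. Per the names in the deposited files, the authors removed duplicates and called each library against its IgG counterpart (same set, same number). The submitters' processing notes name cutadapt 4.4, Bowtie2, Picard 2.17.11, MACS2 2.1.1 and the build hg38, with no roles or order. The deposited fold is the authors' ratio of a region's signal to IgG. The deposited significance is the authors' −log10 p and −log10 q, with a lowest −log10 q of 2.00. The deposited score was not used. Reads and IgG libraries were not analysed here, and depth is unknown.

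Overlapping peaks of one list were merged on the 22 autosomes and X. A region counted for a gene (GENCODE release 44) when it shared at least 1 base with the window. Counts were set beside the same counts over 19962 protein-coding genes. The exact permutation test was run on 1 value only, and p-values measure only the spread between these libraries, which may be technical. Region counting was tested on simulated data and returned all 200 planted genes. The named regions were those of all 4 FLI1 libraries with the best mean percentile of fold (at most 2 per gene within 10 kb and 1 more within 50 kb), together with the widest mark region of each replicate. Except for IGF2BP1, further pathway genes were named for H3K27me3, or for FLI1 with H3K27ac, at a start, at most 12, in list order. A result of that list is not reported here. The members and lists were chosen with earlier results of these data known. Motifs were searched on both strands as GGAA or TTCC and CCGGAA or TTCCGG, which overlap, and repeats as at least 4 unbroken units. Summit sequences were centred on the summit of the library where the region had its highest percentile of fold. Summits of other libraries can lie outside them. Alternatives covered the window, significance, list length, summits, overlap, repeat length and leaving out each library. Python 3.11.15, numpy 2.4.6, pandas 2.3.3, scipy 1.17.1, pysam 0.24.0 and samtools 1.23.1 were used.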

Additional observations from a re-analysis of the deposited data

How the results depend on the processing

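Read depth is unknown, so a gene without a region may be one below detection, and 1 cell line without a control lacking the fusion limits what a region shows. Within 1 kb of a start, FLI1 in all 4 libraries was found at 4 of the 10 genes (8 in the 10 kb window), H3K27ac at 1 (6) and H3K9me3 at 0 (5). With only peaks of −log10 q of at least 5, H3K27ac of both replicates was found at 2, H3K9me3 at 2 and H3K27me3 at 1 (2), beside 7.85%, 7.55% and 6.53% of all genes, the 4 FLI1 regions that overlapped H3K27ac within 50 kb became 1, and the mean of 35.5 H3K27ac regions at IGF1R fell to 11.5, an alternative added after the data were seen. Counting bases of H3K27ac in either replicate gave 8 such FLI1 regions, and leaving out 1 library at a time gave 4 to 6. Counting a GGAA repeat anywhere in a region gave 2 regions in place of 1. FLI1 in all libraries was found at 7 to 8 of the 10 genes under the other settings, and at 21 to 36 of the 43 further pathway genes.

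For the rate of FLI1 regions in set A minus set B (-0.468 per 10000), the strict peaks gave 0.261 (exact permutation p = 1) and leaving out each library gave -1.47 to 0.529, the highest without set A replicate 2. A window of 50 kb gave -1.46 (exact permutation p = 0.333). With replicate numbers as a replicate block, the difference was -0.468 (exact permutation p = 1). The labels do not say that the numbers pair libraries across sets, and with 2 pairs this cannot be checked.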
